A study of Homo sapiens with 18 samples.

Results

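The CpGs described here were methylated in DU145 and unmethylated in both HCT15 and PC3, by bisulfite sequencing. They were chosen by a rule on reduced representation bisulfite sequencing (RRBS), which reads the cytosine of a CpG as methylated or not in each read of an MspI fragment. A CpG was taken when it lay on an autosome, was covered by at least 20 reads in all 3 RRBS libraries, and was methylated in at least 80% of reads in DU145 and in at most 20% in each of the other lines. The rule found 2491 of the 953749 CpGs with that coverage, which is 0.261%. The same rule with HCT15 as the methylated line found 15228 CpGs (1.6%), and with PC3 it found 1658 (0.174%). CpGs with the required coverage are called eligible below.

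The study compared 5 kits that enrich methylated DNA before sequencing (MBD-seq) on untreated genomic DNA of 3 established human cancer cell lines. DU145 and PC3 come from prostate carcinoma metastases, and HCT15 comes from a colorectal carcinoma. Each line was captured once with each of MethylMagnet, MethylCollector, MethylCollector Ultra, MethylCap and MethylMiner, giving 15 MBD-seq libraries, and was sequenced once by RRBS. Nothing in the sources says that the libraries of a line came from separate cultures, and normal prostate or colon tissue was not analysed here. By the paper, DU145 came from another supplier than PC3 and HCT15 and was collected at a later passage. Source and passage therefore cannot be told apart from the line DU145 itself. The files hold DNA only, so the identity of the lines could not be checked against expressed markers.

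DNA methylation in mammals sits mainly on the cytosine of CpG dinucleotides. Most CpGs are methylated, while the dense CpGs of CpG islands, often at promoters, are mostly free of it, and dense methylation of a promoter is known to go with a silent gene. Cancer cell lines gain methylation at some islands and lose it over large stretches of the genome. MBD kits pull down fragments with the methyl-CpG binding domain of a protein that recognises methylated CpGs. Such domains bind better the more methylated CpGs a fragment carries. RRBS used no such capture, so MBD-seq is a second measure that the rule did not use.

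The RRBS libraries held between 2858372 and 3074955 autosomal CpGs, with a median coverage between 31 and 46 at those covered by at least 20 reads. The PC3 file holds 0 CpGs on chromosome 22 and ends on chromosome 21 at position 42485481, so no CpG beyond could be a member. On chromosome 22, 34819 CpGs were covered in DU145 and HCT15, of which 435 met the DU145 and HCT15 limits. The MBD-seq libraries held between 9876 fragments on autosomes (DU145, MethylMagnet) and 7163312 (HCT15, MethylMiner). DU145 had the fewest fragments of the lines with 4 kits, and with MethylMiner it lay between the others. With MethylMiner, none of the 3 libraries had the highest share of fragments at the CpGs methylated only in the line on its label. At the DU145-only CpGs their shares overlapped within counting error, and at the HCT15-only CpGs the library labelled HCT15 was the lowest at 1.67% (95% Wilson interval 1.62% to 1.72%), below 2.00% (1.93% to 2.08%) in DU145 and 2.21% (2.12% to 2.30%) in PC3. The paper reports that the profile of this kit resembled the background of all loci read by RRBS. These shares therefore cannot check the line labels of the MethylMiner libraries, which rest on the submitters alone. Each test of MBD-seq shares is also given without that kit.

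The stretches with the densest runs of such CpGs are shown first, to let a reader see what the rule picked. Each is the plus strand of GRCh37, 5′ to 3′, in lower case, with the CG of every DU145-only CpG in capitals. The first 4 are, apart from the run in ZNF703 described below, the largest runs whose window holds no untranslated region. They lie in NFIC (chr19:3434907-3435206, mostly intron), PRDM16 (chr1:3310302-3310601, intron), the long noncoding RNA LINC02323 (chr14:103021800-103022099, exon) and HOXA7 (chr7:27195688-27195965, intron and coding sequence). The others are the shortest run with at least 12 members, at the promoter of the pseudogene MSL3P1 (chr2:234777031-234777091), and the run at the promoter of TRIM58 (chr1:248020816-248020897), chosen after their values were seen.
NFIC: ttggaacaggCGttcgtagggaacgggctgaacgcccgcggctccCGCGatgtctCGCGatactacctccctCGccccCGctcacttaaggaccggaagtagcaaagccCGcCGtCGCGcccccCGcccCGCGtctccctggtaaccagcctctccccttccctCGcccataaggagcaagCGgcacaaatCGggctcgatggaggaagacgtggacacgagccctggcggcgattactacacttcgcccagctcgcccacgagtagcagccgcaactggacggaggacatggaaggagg
PRDM16: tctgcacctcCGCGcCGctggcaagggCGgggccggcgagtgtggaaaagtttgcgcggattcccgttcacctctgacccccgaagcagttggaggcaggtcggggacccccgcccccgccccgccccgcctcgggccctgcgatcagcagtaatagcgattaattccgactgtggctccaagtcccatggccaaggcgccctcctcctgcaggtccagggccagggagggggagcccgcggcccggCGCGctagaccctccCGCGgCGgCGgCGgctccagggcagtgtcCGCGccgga
LINC02323: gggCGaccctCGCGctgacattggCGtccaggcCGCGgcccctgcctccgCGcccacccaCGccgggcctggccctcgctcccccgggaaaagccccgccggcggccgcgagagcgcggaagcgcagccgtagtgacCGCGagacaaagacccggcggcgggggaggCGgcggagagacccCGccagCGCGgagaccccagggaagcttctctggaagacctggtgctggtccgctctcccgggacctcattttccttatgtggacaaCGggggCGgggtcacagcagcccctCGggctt
HOXA7: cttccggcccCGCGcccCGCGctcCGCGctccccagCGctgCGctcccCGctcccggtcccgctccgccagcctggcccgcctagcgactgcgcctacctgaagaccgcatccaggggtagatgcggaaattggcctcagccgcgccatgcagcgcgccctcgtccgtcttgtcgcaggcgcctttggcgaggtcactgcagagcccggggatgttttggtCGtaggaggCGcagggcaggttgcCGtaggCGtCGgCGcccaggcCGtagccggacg
MSL3P1: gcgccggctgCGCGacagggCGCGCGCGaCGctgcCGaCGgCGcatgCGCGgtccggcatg
TRIM58: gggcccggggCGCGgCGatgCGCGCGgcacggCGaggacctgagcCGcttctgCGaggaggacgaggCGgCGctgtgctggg

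These windows hold 17 members (NFIC), 13 (PRDM16), 17 (LINC02323), 16 (HOXA7), 12 (MSL3P1) and 11 (TRIM58). Lower case cg marks a CpG that was not eligible or did not meet the rule. Many members stand within a few bases of each other, and CpGs so close are read by the same RRBS reads. In TRIM58, for example, all 11 members had the same HCT15 level of 13.6% at a median coverage of 22. Members of a run are therefore not independent measurements.

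The RRBS values that chose the members are given as a description, without a test. In DU145 the members ran from 80% to 100% with a median of 95% and a mean of 93.0% ± 6.21 (SD over CpGs), and 459 were methylated in every read. In HCT15 the median was 5.41%, the range 0% to 20%, and 757 members were at 0. In PC3 the median was 4.35%, the range 0% to 20%, and 664 were at 0. All eligible CpGs together averaged 58.3% in DU145, 58.8% in HCT15 and 53.1% in PC3, so DU145 was not the more methylated line as a whole. Median coverage of the members was 61 reads in DU145, 37 in HCT15 and 49 in PC3, against 66, 36 and 47 at all eligible CpGs. An RRBS level is a share of reads over many cells, and a partly methylated population cannot be told apart from partly methylated alleles.

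The limits of the rule cut through a continuous range. In DU145, 182 members lay at 80% to under 82%, and 156 CpGs that met the limits of the other lines lay just outside, at 78% to under 80%. Of the members, 317 had a higher value of HCT15 and PC3 over 18%, and 212 further CpGs missed the rule with that value over 20% and up to 22%. Of all eligible CpGs that were at least 80% methylated in DU145 (457185, or 47.9%), the members were 0.545%.

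Members lay mainly in introns and between genes, away from gene starts. Introns held 1069 members, or 42.9%, and intergenic sequence held 620, or 24.9%. Among all eligible CpGs the shares were 34.4% and 16.6%. Promoters of protein-coding genes, taken as 1000 bp before to 500 bp after the 5′ end of the gene, held 200 members, or 8.03%, against 24.6% of all eligible CpGs. Promoters of other genes held 6.58% against 7.28%, coding sequence 9.76% against 9.44%, and UTRs 3.97% against 4.60%. The median member lay 28806 bp from the nearest protein-coding 5′ end, and the median eligible CpG 8612 bp.

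The CpGs of the other lines' sets lay elsewhere. Protein-coding promoters held 40.5% of the HCT15-only and 27.0% of the PC3-only CpGs, and the median distance to a 5′ end was 832 bp and 5432 bp. A CpG island window, here 500 bp around the CpG with a GC content of at least 55% and an observed to expected CpG ratio of at least 0.65, was found at 532 DU145-only CpGs, or 21.4%. The share was 88.8% for HCT15-only, 71.6% for PC3-only and 43.9% for all eligible CpGs. The median number of CpGs in 200 bp was 9 (quartiles 6 and 14) for DU145-only, 23 for HCT15-only, 20 for PC3-only and 13 for all eligible CpGs. Each set has 1 RRBS library per line behind it, so these differences between sets are descriptions and were not tested.

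**Figure D1:**
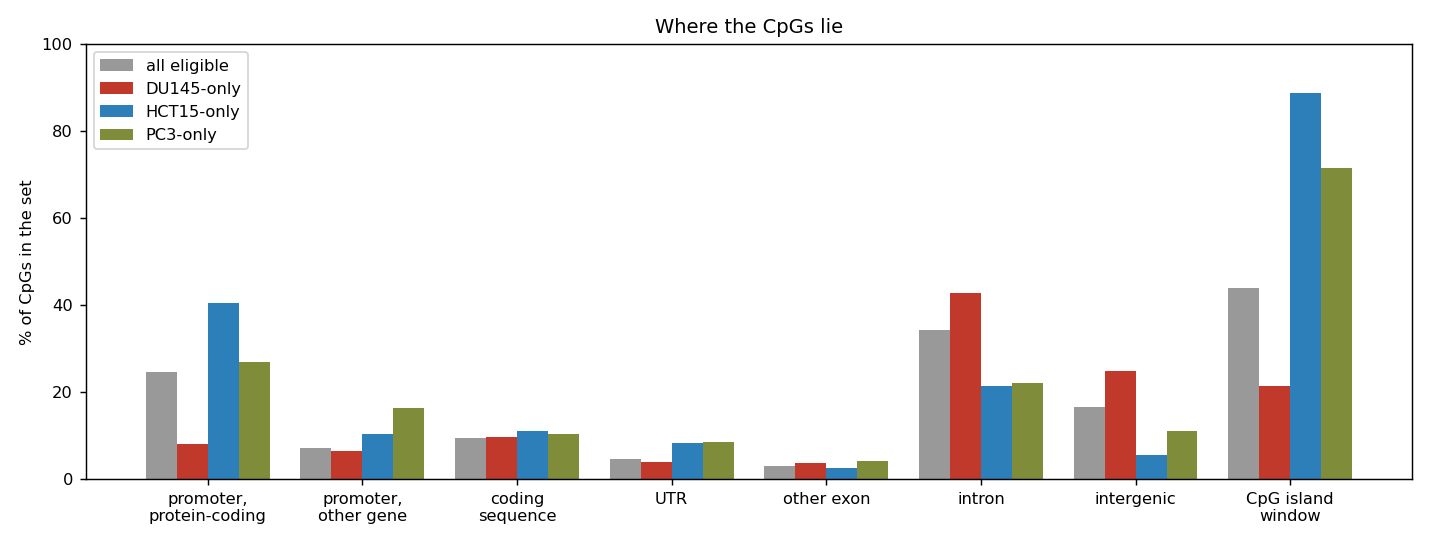
Share of CpGs (%, vertical axis) in each annotation class for all eligible CpGs (grey) and for the CpGs methylated only in DU145 (red), HCT15 (blue) or PC3 (green). The first 7 classes exclude each other and the CpG island window is counted apart, and the DU145-only bars stand above those of the other sets in introns (42.9%) and intergenic sequence (24.9%) and below them in protein-coding promoters (8.03%) and CpG island windows (21.4%).

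The site cut by MspI, CCGG, was rare among the members. Of all eligible CpGs 28.01% lay inside a CCGG, against 2.29% of the members, 0.21% of the HCT15-only and 0.54% of the PC3-only CpGs. Inside CCGG, 0.98% of the eligible CpGs in DU145, 1.30% in HCT15 and 1.52% in PC3 were at most 20% methylated, while outside it the shares were 42.9%, 39.5% and 46.3%. The rule needs a low value in 2 lines, so it hardly takes a CpG inside CCGG. Against eligible CpGs outside CCGG alone, protein-coding promoters held 8.03% of members and 27.3% of those CpGs, and CpG island windows 21.4% and 49.6%. Why CCGG sites read so seldom as unmethylated was not tested. The means over stretches and promoters given below therefore leave CCGG sites out, in all lines alike.

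Along the genome, members came both alone and in dense runs. With at most 500 bp between neighbours they formed 1587 clusters. Of these, 1239 were a lone CpG, which is 49.7% of all members, 348 had at least 2 and 67 had at least 5 members. These 67 clusters held 585 members, or 23.5%, and the largest held 32. Of the HCT15-only CpGs 4.62% stood alone and 79.8% were in clusters of at least 5, and of the PC3-only CpGs 14.2% and 66.6%.

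Chromosome 19 had most members, 291, or 3.83 per 1000 eligible CpGs. Chromosomes 16, 20 and 8 followed with 3.49, 3.46 and 3.45, and chromosome 13 was lowest with 1.64. The fullest stretch of 1 Mb was chr7:27000000-27999999 with 44 members, which holds the HOXA genes. The next were chr19:1000000-1999999 with 37, chr8:37000000-37999999 with 33 and chr19:3000000-3999999 with 32. The eligible CpGs of these stretches were not counted, so this order is one of counts and not of members per eligible CpG.

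Methylation in DU145 extended over the neighbourhood of a member. Of the eligible CpGs within 1 to 10 bp of another member, 43.5% were members themselves, falling to 19.7% at 11 to 25 bp, 7.20% at 26 to 50 bp and 0.687% at 251 to 500 bp. Eligible CpGs that were not members, but lay within 1 to 10 bp of one, averaged 82.5% in DU145, 26.1% in HCT15 and 23.2% in PC3 outside CCGG sites. At 51 to 100 bp the means were 73.1%, 44.1% and 40.2%, and at 251 to 500 bp 43.3%, 33.4% and 25.04%. At 501 to 1000 bp they were 29.6%, 26.8% and 20.7%. The gap between DU145 and the other lines narrowed over this distance. CpGs inside CCGG were 41.7% of the non-members within 1 to 10 bp, and averaged 91.7%, 54.7% and 55.2%. Non-members leave out by definition the CpGs that are high in DU145 and low in both other lines, so their means understate the gap.

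**Figure D2:**
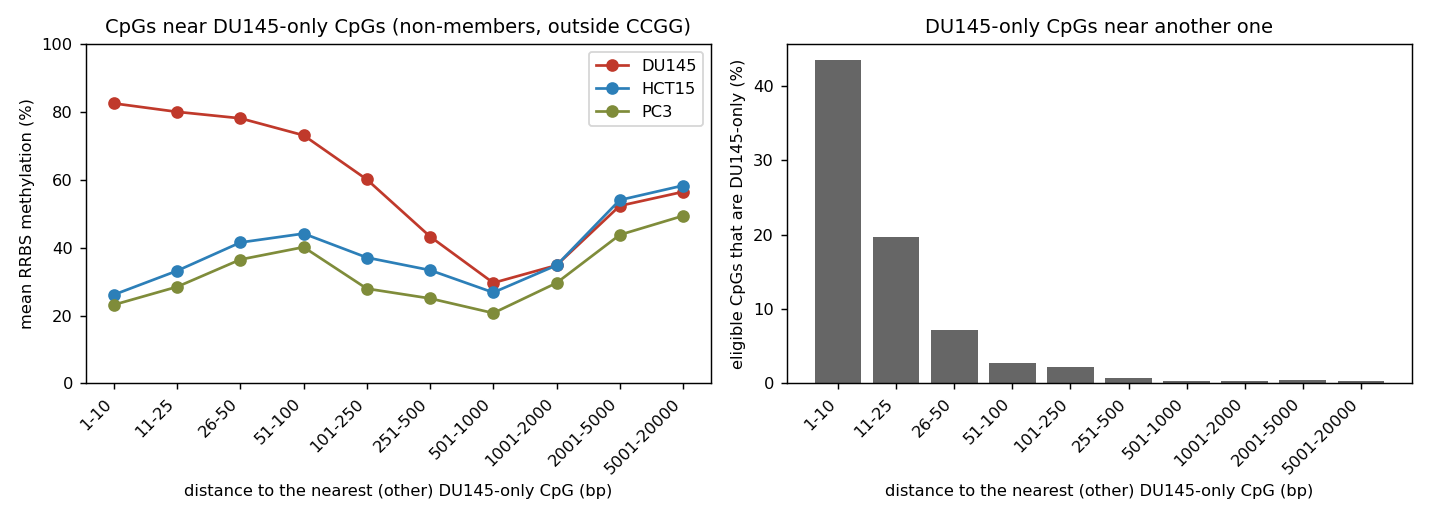
Left, mean RRBS methylation (%) of eligible CpGs outside CCGG that are not DU145-only, by distance in bp to the nearest DU145-only CpG, in DU145 (red), HCT15 (blue) and PC3 (green), with DU145 at 82.5% and the others at 26.1% and 23.2% in the nearest class. Right, share of eligible CpGs (%) that are DU145-only by distance to the nearest other one, which falls from 43.5% at 1 to 10 bp to 0.687% at 251 to 500 bp.

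The members were split by their eligible neighbours within 100 bp outside CCGG, members or not, a split made after the values were seen. At 1397 members (56.1%) the neighbours were at least 50 percentage points more methylated in DU145 than in the mean of the other lines, with means of 90.4% in DU145, 13.8% in HCT15 and 12.7% in PC3. At 510 members (20.5%) the difference was 20 to 50 points, with means of 77.9%, 43.9% and 37.7%, and 406 of these stood alone. At 217 (8.71%) it was under 20 points, with means of 72.6%, 66.2% and 63.8%. In 99 of those 217 the neighbours were at least 70% methylated in all 3 lines, so the member was a lone CpG read as unmethylated in HCT15 and PC3 within methylated sequence. The remaining 367 (14.7%) had no such neighbour. With CCGG sites among the neighbours, the first class held 1141 members and the second 902. Genotypes were not analysed here, and a CpG lost by a sequence change cannot be told apart from an unmethylated one in these counts.

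The 5 clusters with most members outside promoters lay in ZNF703, NFIC, C2CD4D, PRDM16 and LINC02323. ZNF703 encodes a transcriptional corepressor, and its cluster on chromosome 8 (37554562 to 37555377) held 32 members among 45 eligible CpGs, 28 of them in coding sequence. Over its 38 eligible CpGs outside CCGG the mean was 92.6% ± 11.3 in DU145, 2.49% ± 4.83 in HCT15 and 0.772% ± 1.85 in PC3 (SD over CpGs). NFIC encodes a nuclear factor I transcription factor. Its cluster, chr19:3434917-3435417, held 29 members among 34 eligible CpGs, 26 of them intronic, and the means were 98.3% ± 1.84, 1.64% ± 6.69 and 4.84% ± 7.03 in the same order. The lowest DU145 value of the 34 was 94.9%, so every eligible CpG of that stretch was heavily methylated in DU145.

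C2CD4D encodes a C2 domain protein. Its cluster (chr1:151812267-151812521) held 19 of 22 eligible CpGs and averaged 94.4% ± 6.40 in DU145, 1.95% ± 2.27 in HCT15 and 3.82% ± 3.58 in PC3. PRDM16 encodes a zinc finger transcription factor known for brown fat, and 18 of 20 eligible CpGs of its intronic cluster (chr1:3310229-3310596) were members, with means of 95.2% ± 3.74, 4.28% ± 4.64 and 6.80% ± 4.63. LINC02323, a long noncoding RNA, had 17 members among 33 eligible CpGs (chr14:103021803-103022094), with means of 98.3% ± 2.41, 8.37% ± 5.91 and 18.4% ± 13.5. In the first 4 clusters HCT15 and PC3 stayed near 0, and at LINC02323 PC3 was partly methylated. The scatter of all eligible CpGs around these centres and around HOXB13 shows it. In all 67 clusters of at least 5 members, 42.4% of the eligible CpGs that were not members lay inside CCGG.

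**Figure D3:**
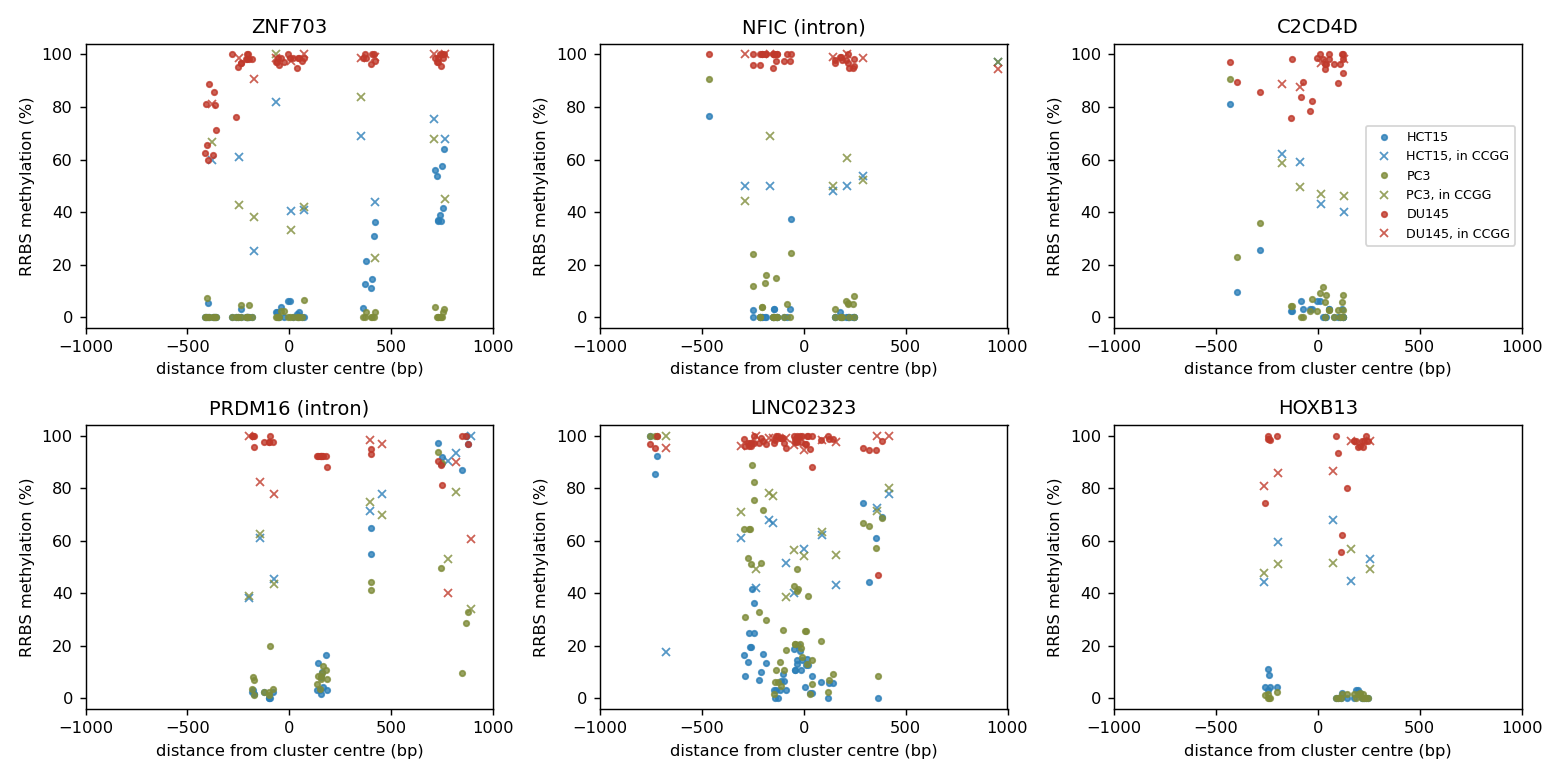
RRBS methylation (%) of every eligible CpG against its distance in bp from the centre of 6 clusters of DU145-only CpGs, in DU145 (red), HCT15 (blue) and PC3 (green), each mark being 1 CpG in 1 library, with crosses for CpGs inside CCGG. DU145 marks sit near the top of each panel and most HCT15 and PC3 circles near 0 within the cluster, while their crosses lie mostly at 40% to 80%.

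Of 12439 protein-coding genes with an eligible CpG in the promoter, 77 had at least 1 member there, which is 0.619%. At least 2 members were found at 30 promoters, at least 5 at 11 and at least 10 at 4. The 4 were HOXB13, CHRM3, AMDHD2 and TRIM58. RNA was not measured, so nothing is known here of the expression of these genes.

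HOXB13, a homeobox transcription factor of the prostate and hindgut, had most. Of 23 eligible CpGs in chr17:46805612-46807112, 17 were members, and they lay from 2 bp before to 489 bp after its 5′ end. Outside CCGG the promoter averaged 92.9% ± 12.8 in DU145, 2.23% ± 3.21 in HCT15 and 0.744% ± 0.913 in PC3 (SD over 19 CpGs). PC3, also a prostate line, was thus as free of methylation there as the colorectal line. MethylCap had 1 fragment over the run of members in DU145 and 0 in HCT15 and PC3, but over the whole promoter window it had 1 in DU145 and 7 in HCT15. With this kit HCT15 had 454832 fragments over eligible CpGs and DU145 87864, so its counts are not rates.

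The other promoters are ordered by what their genes are known to do, a grouping made after the values were seen, and not by their number of members. Receptors and proteins of the synapse come first. CHRM3, the M3 muscarinic acetylcholine receptor (chr1:239548865-239550365), had 16 members among 29 eligible CpGs, with a promoter mean of 86.8% ± 13.6 in DU145, 4.31% ± 14.1 in HCT15 and 5.60% ± 19.6 in PC3. Over that promoter MethylCap had 6 fragments in DU145 and 0 in both other lines. GRIN3A, a subunit of NMDA glutamate receptors, had 6 of 15 (88.6% ± 8.78, 12.2% ± 19.7 and 4.33% ± 4.60). SLITRK3, a transmembrane protein of the synapse, had 3 of 4, and STXBP6, which binds SNARE proteins of vesicle fusion, had 9 of 15 (89.4% ± 13.4, 7.72% ± 22.9 and 15.7% ± 26.1). NTRK2, the receptor of brain-derived neurotrophic factor, had 2 of 20, and its promoter as a whole was low in DU145 too (27.5% ± 23.9, 1.66% ± 3.94 and 6.69% ± 5.51). IL20RA, a subunit of the interleukin-20 receptor, had 2 of 5.

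AMDHD2, an enzyme of N-acetylglucosamine breakdown, had 13 of 19, all in a stretch of 58 bp after its 5′ end (chr16:2570436-2570493). Those 13 averaged 97.9% in DU145, 0.167% in HCT15 and 0.894% in PC3. Over the whole AMDHD2 promoter, however, HCT15 averaged 17.1% ± 36.5 and PC3 11.4% ± 25.1. MethylCap had 2 fragments there in DU145, 14 in HCT15 and 2 in PC3, again from libraries of unequal depth. HSP90B1, the endoplasmic reticulum chaperone GRP94, had 8 of 13, upstream of its 5′ end (offsets -767 to -617 bp). MICOS10, of the mitochondrial inner membrane, had 4 of 14, and OXLD1 had 4 of 67, where the promoter as a whole averaged 11.0% ± 29.4 in DU145. At OXLD1 the members are thus a small methylated patch at the edge of an unmethylated promoter.

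ASCL2, a basic helix-loop-helix factor of intestinal stem cells, had 7 of 45, with promoter means of 80.4% ± 24.98 in DU145, 6.17% ± 19.3 in HCT15 and 31.6% ± 28.6 in PC3. In MethylCollector Ultra its promoter window had 2 fragments in DU145, 1 in HCT15 and 25 in PC3. Those libraries had 5322, 116959 and 88564 fragments over eligible CpGs, so the counts are not rates. With MethylCap the window had 16, 12 and 14 fragments. The promoter window was thus captured in PC3 too. HOXA3 had 5 of 7 (96.3% ± 5.43, 5.84% ± 1.41 and 1.61% ± 1.14). Its promoter was taken at the outermost annotated end, 27192202 on the minus strand, close to the HOXA7 gene (27193335 to 27197555). A HOXA3 transcript starting further inside was not looked at. FOXL1 had 3 of 23 (48.9% ± 27.9, 8.57% ± 8.08 and 1.28% ± 1.72). NRARP, an inhibitor of Notch signalling, had 3 of 53 (32.7% ± 42.0, 3.20% ± 4.35 and 15.1% ± 23.2). TRIM58, a ubiquitin ligase of red cell precursors, had 11 of 44, while its promoter as a whole was at 91.6% ± 10.5 in DU145, 40.5% ± 26.7 in HCT15 and 11.4% ± 30.4 in PC3.

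PCDH7, a protocadherin of cell adhesion, had 7 of 15, and its promoter averaged 82.7% ± 18.2 in DU145, 0.535% ± 1.19 in HCT15 and 0 in PC3. KAZN, a desmosome-linked protein, had 7 of 35, TPM4, a tropomyosin, 2 of 6, and EPB41L3, of the membrane skeleton, 2 of 23. Outside CCGG the EPB41L3 promoter averaged 65.6% in DU145, 48.0% in HCT15 and 9.38% in PC3. IGFBP2, which binds insulin-like growth factors, had 3 of 26. The remaining named promoters were FAM166C (4 of 21), PIFO, a protein of the primary cilium (3 of 6), RBBP8NL (2 of 8) and NKPD1 (2 of 10). Outside CCGG the FAM166C promoter averaged 39.3% ± 36.5 in DU145, 5.83% ± 8.06 in HCT15 and 14.6% ± 15.1 in PC3. At PIFO, MethylCap had 1 fragment in DU145 and 13 in HCT15, and the whole promoter of PIFO averaged 29.2% ± 43.6 in HCT15. A promoter can thus hold DU145-only CpGs and still have fragments in another line, counted here in libraries of unequal depth.

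Gene lists were read for members in their promoters. None of 23 genes often methylated in prostate cancer had one, and none of 21 genes of epithelial-mesenchymal transition, 13 Wnt antagonists, 13 DNA repair genes, 5 cell cycle inhibitors, 21 apoptosis genes, 5 antigen presentation genes, 26 growth signalling genes and 61 ribosomal protein genes had one either. Those numbers count only genes with an eligible promoter CpG. Of all 12439 such genes 77 had a member (0.619%), so finding none in lists of 5 to 61 genes does not set them apart. Of 14 genes known for prostate, gut or squamous epithelial identity 3 had a member (21.4%, against 0.619% of all genes), namely HOXB13, HNF4A and CDX2. HOXB13 held 17 of the 19 members of that list, and the other genes 1 each. Of 108 genes of a homeobox list, which was set by gene symbol and leaves out some homeobox genes such as CDX2, 4 had a member (3.70%, against 0.619% of all genes), namely HOXB13 with 17, HOXA3 with 5, and HOXA13 and EN2 with 1 each. The lists had 3 of 387 zinc finger genes (ZNF273, ZNF496 and ZNF785), 2 of 198 solute carriers (SLC6A5 and SLC26A1), 1 of 34 protocadherins (PCDH7), 1 of 68 SOX, FOX, GATA and T-box genes (FOXL1) and 1 of 32 collagens and laminins (COL1A1). The lists were chosen with earlier results of these data known and were not tested for enrichment, so their shares are descriptions only.

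A lone member did not always stand for its promoter. HNF4A, a nuclear receptor of liver and gut, had 1 member of 9 eligible CpGs, and those outside CCGG averaged 97.4% ± 2.15 in DU145, 9.22% ± 21.4 in HCT15 and 66.0% ± 32.3 in PC3. CDX2, an intestinal homeobox factor, had 1 of 12, with 76.8% ± 16.2, 0.408% ± 0.864 and 15.8% ± 18.7. At COL1A1, a chain of type I collagen, the promoter mean was 24.03% ± 28.4 in DU145 and 45.8% ± 40.9 in HCT15, and at EN2, a homeobox gene of the brain, it was 22.4% ± 28.4 and 35.7% ± 11.6. Both promoters were thus more methylated in HCT15 on average, and their 1 member is an exception. Outside CCGG the SLC26A1 promoter averaged 98.6% in DU145, 12.0% in HCT15 and 83.8% in PC3, and that of ZNF273 97.4%, 75.4% and 39.3%. HOXA13 was at 13.3%, 2.98% and 2.51%, SLC6A5 at 77.5%, 42.0% and 28.7%, and ZNF785 at 53.1%, 18.5% and 9.92%. ZNF496, with 2 members, averaged 10.9%, 1.57% and 0.903%.

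Taken with gene bodies, 745 protein-coding genes had a member in the gene or its promoter, and 87 had at least 5. Genes with an eligible CpG there were not counted, so these numbers have no share over all genes. A gene with many eligible CpGs can collect members at a low share, as PRDM16 did with 20 of 1176 (1.70%). Homeobox genes of the HOXA group held 3 dense clusters outside protein-coding promoters, chosen here after their values were seen. HOXA7 had 16 members of 18 eligible CpGs (chr7:27195698-27195955), HOXA9 13 of 14 (chr7:27204984-27205115) and a stretch shared by HOXA9 and HOXA10 6 of 6 (chr7:27211591-27211658). The annotated HOXA9 gene ran from 27202057 to 27214799 on the minus strand, so its promoter was taken at 27214799. Of the 13 members, 8 were in coding sequence and 5 in UTRs. They may thus lie near the start of a shorter transcript, which was not looked at. The HOXA7 cluster averaged 97.6% ± 2.49 in DU145, 2.41% ± 2.51 in HCT15 and 3.61% ± 2.69 in PC3, and the HOXA9 cluster 99.1% ± 1.59, 0.366% ± 1.32 and 1.42% ± 2.41. By contrast CDH4, a cadherin, had 17 members in 15 clusters, and RBFOX1, a splicing regulator, had 14 in 10 clusters, so their members were scattered over large genes.

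MBD-seq was then read at the same CpGs. For each library, the fragments over at least 1 DU145-only CpG were divided by the fragments over any eligible CpG, a share that does not move with the yield of the library. With MethylCap the share was 0.805% in DU145 (707 of 87864 fragments, 95% Wilson interval 0.748% to 0.866%), 0.260% in HCT15 (1181 of 454832, 0.245% to 0.275%) and 0.225% in PC3 (239 of 106090, 0.198% to 0.256%). DU145 stood above both lines, and the intervals did not overlap. Intervals and limits cover counting error only.

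The 3 kits with low yield gave the same order of DU145 above the others. With MethylMagnet the share was 0.983% in DU145 (23 of 2339 fragments), 0.267% in HCT15 (41 of 15376) and 0.153% in PC3 (57 of 37142). With MethylCollector it was 0.802% (51 of 6358), 0.185% (123 of 66588) and 0.167% (32 of 19152). With MethylCollector Ultra it was 0.714% (38 of 5322), 0.175% (205 of 116959) and 0.251% (222 of 88564). DU145 counts in these kits are small, and the DU145 intervals are wide (0.656% to 1.47% for MethylMagnet), but none reaches the values of the other lines. MethylMiner differed, with 0.600% in DU145 (805 of 134262), 0.604% in HCT15 (1638 of 270974) and 0.590% in PC3 (625 of 105986).

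The log2 share in DU145 minus the mean log2 share of the other lines reached 2.30 with MethylMagnet and 2.19 with MethylCollector. It was 1.78 with MethylCollector Ultra and 1.73 with MethylCap, while MethylMiner gave 0.0062. The mean over the 5 kits was 1.60 ± 0.93 (SD, n = 5 kits), a 3.04-fold higher share (two-sided exact permutation test of the cell line within each kit, p = 0.0082). DU145 had the highest share in 4 of 5 kits. Without MethylMiner the mean was 2.00, with an exact permutation p = 0.012, which is the smallest that 4 kits allow. The kits share the DNA of a line, so the p-value shows only how alike the kits set DU145 apart. With 1 library per kit and line, it measures no spread between libraries or cultures of a line.

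**Figure D4:**
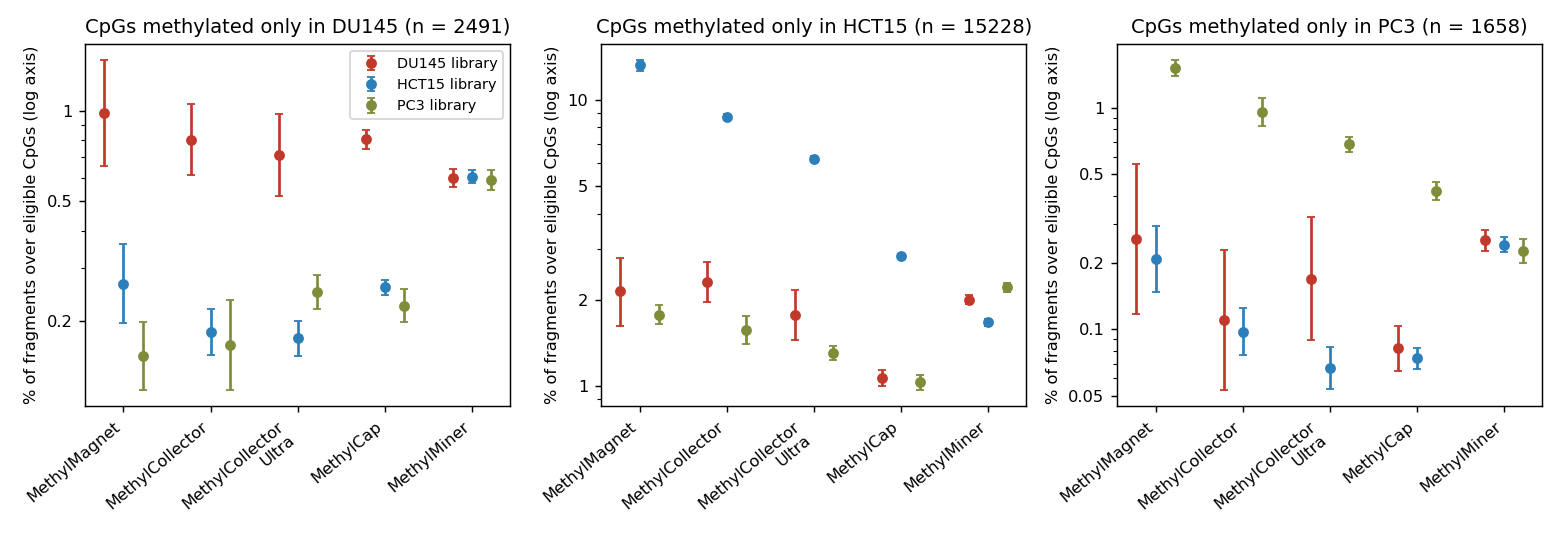
Share of fragments over eligible CpGs (%, log axis) that overlap CpGs methylated only in DU145 (left), HCT15 (middle) or PC3 (right), for each kit and each cell line (DU145 red, HCT15 blue, PC3 green). Each point is 1 library with its 95% Wilson interval, and in the left panel the DU145 points of 4 kits lie between 0.714% and 0.983%, above both other lines, while the 3 MethylMiner points lie at 0.590% to 0.604%.

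The same test at the sets of the other lines gave similar sizes. At the HCT15-only CpGs the HCT15 share was 3.06-fold higher (mean log2 difference 1.62 ± 1.19, exact permutation p = 0.012, 4 of 5 kits). At the PC3-only CpGs the PC3 share was 4.44-fold higher (2.15 ± 1.30, exact permutation p = 0.012, 4 of 5 kits). In both, the MethylMiner difference was below 0, at -0.33 and -0.13. Without MethylMiner the mean log2 differences were 2.10 and 2.72 (exact permutation p = 0.012 for each). The differences between the 3 sets were not tested.

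Within the DU145-only CpGs, the share was higher in DU145 in every subset tested. The 200 CpGs in protein-coding promoters gave a mean log2 difference of 1.93 ± 1.23 (exact permutation p = 0.012, 4 of 5 kits) and the 2291 others 1.58 ± 0.89 (exact permutation p = 0.0041, the smallest possible, 5 of 5 kits). The 532 CpGs in island windows gave 1.82 ± 1.15 (exact permutation p = 0.012) and the 1959 outside gave 1.49 ± 0.85 (exact permutation p = 0.0082). Adjusted over the 4 subsets by Benjamini-Hochberg, each p was 0.012. Without MethylMiner the differences were 2.46 in promoters, 1.97 outside them, 2.30 in island windows and 1.86 outside those, each with an exact permutation p = 0.012. The promoter counts are small, with 5, 8 and 4 fragments in DU145 for MethylMagnet, MethylCollector and MethylCollector Ultra, 47 for MethylCap and 49 for MethylMiner.

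Split by neighbours, the difference was 2.00 ± 1.18 at the 1397 members whose neighbours differed by at least 50 points (exact permutation p = 0.0082, 4 of 5 kits), 1.32 ± 0.78 at the 510 with 20 to 50 points (exact permutation p = 0.0041, the smallest possible, 5 of 5 kits) and 1.19 ± 0.89 at the 367 without a neighbour (exact permutation p = 0.0082, 4 of 5 kits). At the 217 whose neighbours differed by under 20 points it was 0.73 ± 1.01 (exact permutation p = 0.041, 4 of 5 kits). The kit below 0 in this last class was MethylCollector, at -0.58, with MethylMiner at 0.0036. Without MethylMiner the 4 classes gave 2.52, 1.60, 1.49 and 0.91 in that order, with exact permutation p = 0.012 for the first 3 and p = 0.049 for the last. The last class missed the threshold without MethylMagnet (0.43, exact permutation p = 0.17), without MethylCollector Ultra (0.56, exact permutation p = 0.14) and without MethylCap (0.68, exact permutation p = 0.14). With MethylCap the shares there were 0.0694% in DU145 (61 fragments), 0.0427% in HCT15 (194) and 0.0311% in PC3 (33). The p-values of this split were not adjusted, and the differences between its classes were not tested.

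Most single members were not seen at this depth. With MethylCap, at least 1 fragment lay over 907 members in DU145, or 36.4%, against 22.6% of all eligible CpGs. In HCT15 the shares were 30.7% of members against 52.9%, and in PC3 9.96% against 25.3%. The HCT15 library is the deepest of the 3 MethylCap libraries, with 3825379 autosomal fragments against 811203 in DU145, so its share of members is not comparable with that of DU145 without its own background. The mean depth at members relative to all eligible CpGs was 1.61 in DU145, 0.355 in HCT15 and 0.330 in PC3. With MethylMiner these ratios were 0.878, 0.953 and 0.787. Over the 4 kits other than MethylMiner, 1482 members (59.5%) had no DU145 fragment in any kit, 849 had a fragment in 1 kit, 150 in 2, 10 in 3 and 0 in all 4. Of all eligible CpGs 74.7% had no DU145 fragment in these kits, and of those at least 80% methylated in DU145 60.4% had none, so the members were seen about as often as other methylated CpGs of DU145, with no test of that difference.

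Capture in DU145 rose with the number of CpGs around the member. With MethylCap the mean number of fragments per member was 0.137 with 1 to 4 CpGs in 200 bp, 0.340 with 5 to 9, 0.626 with 10 to 14, 0.914 with 15 to 19 and 1.02 with 20 or more. All eligible CpGs at least 80% methylated in DU145 gave 0.184, 0.431, 0.646, 0.820 and 1.06 in the same classes. Those at most 20% methylated in DU145 stayed between 0.0481 and 0.0892. With 10 or more CpGs the members were thus captured about as other methylated CpGs of DU145. In the classes of 1 to 4 and 5 to 9 CpGs the members had fewer fragments, and no difference was tested. With MethylMiner, unmethylated CpGs also rose with density, from 0.370 to 0.632. In the class of 20 or more CpGs the members had 0.585 and all eligible CpGs at least 80% methylated in DU145 had 0.876.

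**Figure D5:**
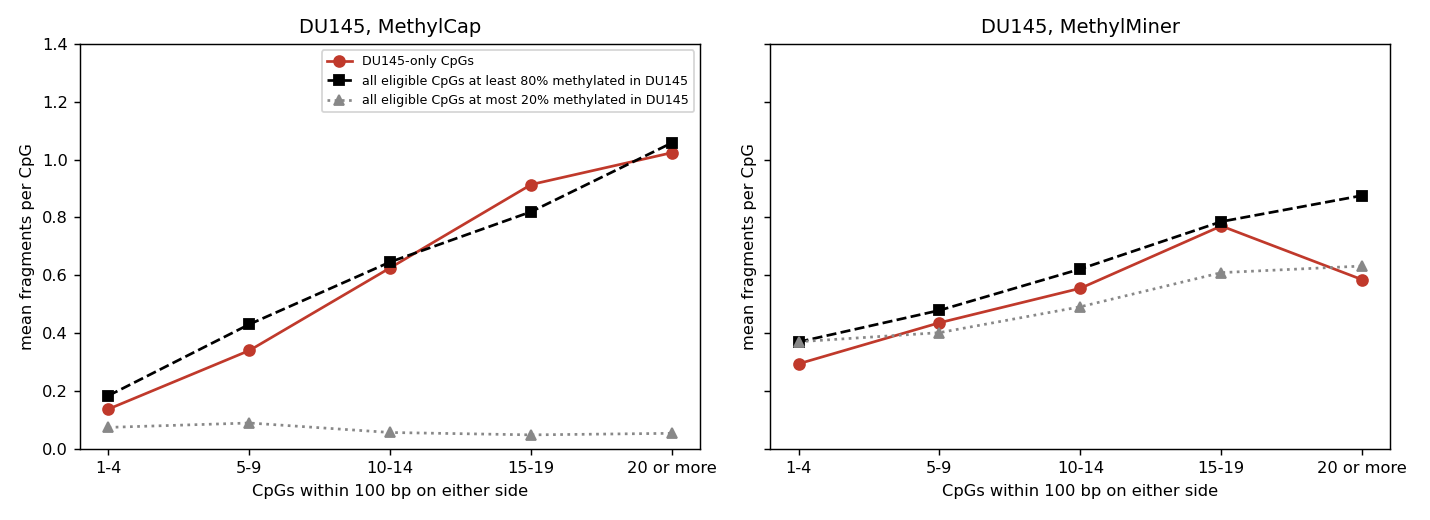
Mean number of DU145 fragments per CpG against the number of CpGs in the 200 bp around it, for MethylCap (left) and MethylMiner (right). Red circles are DU145-only CpGs, black squares all eligible CpGs at least 80% methylated in DU145 and grey triangles those at most 20% methylated. With MethylCap the red and black lines both rise, to 1.02 and 1.06, while the grey line stays between 0.0481 and 0.0892.

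The 67 clusters of at least 5 members were read as single stretches. With MethylCap, 48 had a fragment in DU145 (118 fragments in all), 25 in HCT15 (67) and 13 in PC3 (26). Per 100000 fragments over eligible CpGs this was 134 in DU145, 14.7 in HCT15 and 24.5 in PC3, and the DU145 rate was the highest of the 3 in 46 of 67 clusters. With MethylMiner the rates were 76.7, 71.2 and 65.1, and DU145 was highest in 21. With MethylCollector 18 clusters had a fragment in DU145, 12 in HCT15 and 6 in PC3, with MethylMagnet 8, 10 and 10, and with MethylCollector Ultra 7, 14 and 21. The libraries of DU145 are smaller in these kits, and the rates were 393, 28.5 and 41.8 with MethylCollector, 342 (8 fragments), 78.04 and 26.9 with MethylMagnet, and 188 (10 fragments), 19.7 and 42.9 with MethylCollector Ultra.

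Single clusters had small counts. Over the ZNF703 cluster MethylCap had 6 fragments in DU145, 4 in HCT15 and 0 in PC3. Over NFIC it had 3, 0 and 0, over C2CD4D 4, 0 and 0, over PRDM16 2, 0 and 0, and over LINC02323 4, 2 and 2. In that kit HCT15 had 454832 fragments over eligible CpGs and DU145 87864, so equal counts are not equal rates. The kits of low yield had fewer still. Over ZNF703 the counts in DU145, HCT15 and PC3 were 1, 2 and 0 with MethylMagnet, 0, 3 and 0 with MethylCollector and 0, 2 and 0 with MethylCollector Ultra. Over LINC02323 MethylMagnet had 1, 0 and 0 and MethylCollector Ultra 0, 0 and 3. Over the other named clusters DU145 had 2 fragments at NFIC with MethylCollector Ultra and 2 at PRDM16 with MethylCollector, while C2CD4D had 0 in DU145 and 1 in each other line with MethylCollector Ultra. With MethylMiner HCT15 had the most fragments at ZNF703 (9 against 4 in DU145), NFIC (7 against 2), C2CD4D (3 against 2) and PRDM16 (3 against 2). At MSL3P1 no kit had a DU145 fragment, while HCT15 had 3 with MethylCollector Ultra, 2 with MethylCap and 1 with MethylMiner and PC3 had 1 with MethylCollector Ultra. RRBS read 0% at all 12 CpGs in HCT15. That run spans only 41 bp and HCT15 MethylCap fragments averaged 195 bp. A fragment was counted when it overlapped the run at all, so these counts also take in sequence outside the 12 CpGs. A count of 0 allows up to 3 fragments, so most single clusters cannot be called present or absent by MBD-seq at this depth.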

How the data were processed

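For MBD-seq the authors deposited signal, namely the depth of non-duplicate fragments in runs along NCBI build 37. Read pairs had been mapped with BOWTIE, kept when unique and within 400 bp, and collapsed to a single fragment where their positions were the same. The RRBS files, as deposited, give for every CpG a count of methylated reads and a total count, over both strands, from a coverage of 6 upwards. The RRBS aligner and its version are not given in the sources used here. Each kit and line has 1 library, so kits are the only repeats.

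To recover fragments, a rise in depth was read as a start and matched to the first free fall after it. RRBS positions were kept where GRCh37 has a CG, and genes came from GENCODE 44 on that build. A promoter ran from 1000 bp before to 500 bp after a gene's 5′ end, and a cluster allowed at most 500 bp between neighbouring members. That 5′ end was the outermost of the annotated gene, so a transcript starting further inside had no promoter of its own. The MBD-seq share (pseudocount 0.5 fragments) was compared by moving the cell line label within each kit, over every relabelling, two-sided, with a threshold of 0.05. Kits pair the libraries across lines and were the block. The rebuilding and the test were tested on simulated data.

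The named genes were the 25 protein-coding genes with most members in the promoter (11 were tied at 2 members, and the 6 with the largest share of members among their eligible promoter CpGs, then by position, were taken), the 5 largest clusters in no promoter and each listed gene with a member in its promoter. The members and lists were chosen with earlier results of these data known. Means over stretches and promoters outside CCGG and the split by neighbours were chosen after the values were seen. Chromosomes X and Y and positions off a CG were left out. Alternatives were other coverage minimums, limits, promoter and cluster sizes, fragment lengths, denominators and pseudocounts, each kit left out and no block. Python 3.11.15 was used, with pysam 0.24.0, statsmodels 0.14.6, matplotlib 3.10.9, scipy 1.17.1, pandas 2.3.3 and numpy 2.4.6.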

Additional observations from a re-analysis of the deposited data

Results flagged for a closer look

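The MethylMiner kit stood far from the other 4 kits in the log2 difference between lines. At the DU145-only CpGs its difference was 0.0062, where the other kits gave 1.73 to 2.30. In protein-coding promoters it was -0.22, outside promoters 0.025 and outside CpG islands 0.023. At the PC3-only CpGs it was -0.13. Each gap to the nearest kit was above Dixon's critical value of 0.71 of the range for 5 values, which chance exceeds in about 1 in 20 groups, and the first 4 of these sets share CpGs. MethylMiner had the deepest DU145 library, with 2894727 autosomal fragments. The cause was not tested.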

How the results depend on the processing

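The number of DU145-only CpGs depended on the limits. It was 4543 with a coverage of at least 10, 629 with at least 50, 952 with limits of 90% and 10%, and 5328 with 70% and 30%. The number of protein-coding promoters with a member was 121, 38, 37 and 172 in the same order, 19 for promoters from 250 bp before to 50 bp after the 5′ end and 158 for 2000 bp before to 1000 bp after. The number of clusters was 1612 with at most 200 bp and 1574 with at most 1000 bp between neighbours. The higher MBD-seq share of DU145 kept its direction and stayed past the threshold under all 23 alternatives, with mean log2 differences from 0.73 to 2.02 and exact permutation p from 0.00067 to 0.041. The lowest of these, for members whose neighbours differed by under 20 points, missed the threshold in turn without MethylMagnet, MethylCollector Ultra or MethylCap (0.43 to 0.68). Each kit left out in turn gave 1.43 to 2.00 (exact permutation p from 0.012 to 0.025), and without the kit as block the mean stayed 1.60 (permutation p = 0.00067). The 4 subsets and the sets of HCT15 and PC3 also stayed past it under each of 18 alternatives. The labels give no replicate numbers, so kits alone pair the libraries. Depth limits single sites, since DU145 had from 2339 to 6358 fragments over eligible CpGs with the 3 kits of low yield.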
